A study of Homo sapiens with 10 samples.

Results

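Cyclins and cyclin-dependent kinases (CDKs) were followed as knockout targets in a genome-wide CRISPR screen of 22Rv1 cells, a human prostate carcinoma cell line. The members were the genes of the count table whose symbols match CDK followed by a number (with or without A or B), or CCN followed by a letter and an optional number. This gave 46 genes of 18686 and 137 sgRNAs of 55849. They comprised 15 cell-cycle genes, 15 transcriptional genes and 16 other family members. Membership in the family used symbols only, not measured values, while the classes were chosen with earlier results of these data known. The arms were the parental line and a line labelled as overexpressing NMYC, which MYCN encodes. Each arm has 1 library at T0 and 2 replicate cultures sequenced at T6 and again at T12, 10 libraries in 6 groups. All cells carried the lentiviral sgRNA library, introduced at a multiplicity of infection of 0.3 and followed by puromycin selection. T0 was taken after selection, and the cultures were then passaged every 72 hours for 12 generations. The promoter driving NMYC, the clonality of either line and the unit behind T6 and T12 are not stated in the labels. The design contrasts how knockouts fare with and without NMYC overexpression.

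Cyclins are regulatory subunits that bind and activate CDKs. D-type cyclins with CDK4 and CDK6 phosphorylate the retinoblastoma protein and start the G1 phase program, cyclin E and cyclin A with CDK2 act at S phase entry and during replication, and cyclin A and cyclin B with CDK1 drive mitosis. A separate branch acts on RNA polymerase II: CDK7 with cyclin H at initiation, CDK9 with cyclin T at release from pausing, CDK12 and CDK13 with cyclin K in elongation, CDK8 and CDK19 with cyclin C in the Mediator complex, and CDK11 with cyclin L in transcription and splicing. An sgRNA against a gene needed for growth becomes rarer in the culture, and an sgRNA against a gene that restrains growth becomes more frequent.

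Library totals ran from 8783512 to 18398571 counts. Of the 137 member sgRNAs, 132 had a mean of at least 20 counts over the 10 libraries and were kept. Single sgRNAs of CCNB3, CCNK, CCNY, CDK9 and CDK20 were left out by this filter, so these genes had 2 sgRNAs, as did CDK10, which has 2 in the table. All 46 members were tested, 40 of them with 3 sgRNAs. Between 2.92% and 12.4% of the member sgRNAs had 0 counts in a library, against 2.98% to 9.15% of all sgRNAs. Replicate cultures differed widely: the summed levels of 15 of the 46 members (32.6%) differed by over 4-fold between the parental T12 replicates, as did 24.5% of all genes, and 9 (19.6%) between the NMYC T12 replicates, as did 22.7% of all genes. The T0 libraries of the arms, which were not tested against each other, differed by over 4-fold for 12 members (26.1%) and for 29.7% of all genes.

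Levels are given as CPM (sgRNA counts scaled to a common library size) and summed over the kept sgRNAs of a gene. Each series of values runs from the T0 library through both T6 libraries to both T12 libraries. A log2 value is the log2 ratio of group means of these sums, after adding 0.5 CPM, relative to the median gene. It understates the change of genes with few counts. Gene p-values rank each sgRNA by its edgeR p and aggregate the ranks per gene, separately for the lower and the higher side, with Benjamini-Hochberg adjustment over all 18197 tested genes. The cultures of an arm were split from cells infected together, so replicate spread leaves out variation between infections. With 46 members chosen by name, counts are read beside the same share of all genes.

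No cyclin or CDK gene passed at an adjusted p of 0.05 in any of the 9 comparisons, in which 0% of all genes were called. In parental cells from T0 to T12, 4 of 46 members had an unadjusted p under 0.05 on the lower side (8.7%, beside 5.08% of all genes) and 1 on the higher side (2.17%, beside 4.86%). In NMYC cells 3 were on the lower side (6.52%, beside 5% of all genes) and 3 on the higher side (6.52%, beside 5.09%). The difference NMYC minus parental gave 1 lower (2.17%, beside 4.76%) and 2 higher (4.35%, beside 4.82%). DESeq2 p-values aggregated in the same way and the edgeR test on summed counts also called 0 members.

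The D-type cyclins and their kinases showed no shared direction. Cyclin D1 (CCND1) had the highest parental T0 level of the family, 277 CPM, with 80.4 and 242 at T6 and 91.3 and 155 at T12. CCND1 in NMYC cells went from 57.6 CPM through 61.8 and 56.3 to 75.2 and 94.3. All later parental libraries thus lay below T0, and both NMYC T12 libraries lay above it (log2 values -1.07 and 0.52; adjusted p on the lower side 0.989 and 0.987). Its sgRNAs were unlike: HGLibB_08064 went from 1065 parental counts at T0 to 3 and 24 at T12, and HGLibB_08065 from 2633 to 1051 and 2429. HGLibB_08066 rose, from 7 parental counts at T0 to 359 and 36 at T12. HGLibB_08064 was also scarce in NMYC cells, with 63 counts at T0 and 0 and 2 at T12.

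Cyclin D3 (CCND3) went from 10.6 CPM in the parental T0 library through 21.5 and 176 (T6) to 48.3 and 41.1 (T12). CCND3 in NMYC cells went from 61.8 CPM through 43 and 26.2 to 53.1 and 15. The T12 libraries lay above T0 in parental cells and below T0 in NMYC cells, with T12 ranges that overlap between the arms (difference -2.89, adjusted p on the higher side 0.994, the side with the smaller p). Cyclin D2 (CCND2) had log2 values of -1.18 in parental and -0.45 in NMYC cells, with all T12 libraries below T0.

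CDK4, the partner kinase of the D cyclins, went from 22.6 CPM in the parental T0 library through 34.3 and 6.74 (T6) to 2.07 and 82.6 (T12). CDK4 in NMYC cells went from 29 CPM through 22.3 and 20.3 to 11.1 and 24.5. The parental T12 replicates lay on opposite sides of T0, and the NMYC libraries all lay below it (log2 values 0.99 and -0.71). In NMYC cells 1 of its sgRNAs was nearly absent at T12, HGLibB_08763, which went from 157 counts through 17 and 2 to 0 and 1 (edgeR unadjusted p = 0.0176). The same sgRNA had 14 counts at parental T0 and 1 and 513 at T12. CDK6, the second kinase of this class, went from 103 CPM in the parental T0 library through 51.2 and 276 (T6) to 158 and 35.5 (T12), and over the NMYC libraries from 94.3 through 108 and 97.4 to 92.1 and 167. Its log2 values, 0.02 and 0.43, lay close to the median gene in both arms, with T12 replicates on opposite sides of T0 in each.

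For S phase, cyclin E1 (CCNE1) went from 20.5 CPM in the parental T0 library through 89.8 and 57.6 (T6) to 58.1 and 134 (T12). CCNE1 in NMYC cells went from 213 CPM through 103 and 71.2 to 85.3 and 166. Every later library lay above T0 in parental cells and below T0 in NMYC cells, and all 3 sgRNAs lay on that side of the median sgRNA in each arm. CCNE1 thus had the lowest difference among the cell-cycle members (-2.98) and the smallest p of any member on the lower side (unadjusted p = 0.0478, adjusted p = 0.992). The T12 levels of the arms overlapped, and their direct comparison gave a log2 value of 0.45. Cyclin E2 (CCNE2) had log2 values of 4.07 and 1.17, and its 4.07 rests on 1.42 CPM at parental T0, where its sgRNAs had 3, 12 and 4 counts.

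CDK2, the partner of cyclins E and A, went from 15.5 CPM in the parental T0 library through 14.1 and 8.89 (T6) to 47.2 and 4.29 (T12). CDK2 in NMYC cells went from 24.1 CPM through 36.5 and 28.8 to 18.8 and 55.5. At T12 the replicates straddled T0 in both arms (log2 values 0.81 and 0.59). Its sgRNA HGLibB_08747 had 0 counts in all parental libraries and 0, 1, 4, 0 and 529 in the NMYC libraries, so 1 culture held nearly all of its reads. CDK3, a little-studied relative of CDK2, had the highest parental log2 value of the family, 4.22 (adjusted p on the higher side 0.981). CDK3 went from 5.15 CPM in the parental T0 library through 41.2 and 18.2 (T6) to 182 and 13.5 (T12), and over the NMYC libraries from 24.4 through 41.3 and 15.1 to 34.3 and 84.8. All T12 libraries lay above T0, far apart from each other, and the difference was -2.87 (adjusted p = 0.992). For the parental change of CDK3, the alternatives gave an adjusted p of 0.231 at the lowest, for summed counts.

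Cyclin A2 (CCNA2), which acts in S phase and early mitosis, was the only member among the cell-cycle genes below T0 in every later library of both arms. It went from 166 CPM in the parental T0 library through 39.6 and 38 (T6) to 70.9 and 11.6 (T12). CCNA2 in NMYC cells went from 79.6 CPM through 21.7 and 28.6 to 26 and 11.2. Its log2 values of -1.90 and -2.10 were the lowest of the cell-cycle members in both arms, and neither passed (adjusted p on the lower side 0.989 and 1). The sgRNAs differed: HGLibB_08048 went from 2025 parental counts to 400 and 110, HGLibB_08046 from 198 to 697 and 72, and HGLibB_08047 had 0 at parental T0. Cyclin A1 (CCNA1), the germline form, had log2 values of 0.97 and -0.62.

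Among the mitotic genes, CDK1 went from 84.1 CPM in the parental T0 library through 19.1 and 55.2 (T6) to 110 and 88.5 (T12). CDK1 in NMYC cells went from 154 CPM through 42.9 and 38.1 to 41.5 and 96.4. The parental T6 libraries lay below T0 and the T12 libraries above it, while all NMYC libraries lay below T0 (log2 values at T12 0.33 and -1.18; adjusted p on the lower side 1 and 0.986). Cyclin B1 (CCNB1), its main mitotic partner, went from 43.4 CPM in the parental T0 library through 19.2 and 99.8 (T6) to 7.37 and 34.7 (T12). CCNB1 in NMYC cells went from 23.7 CPM through 47 and 37.6 to 10.4 and 32.3, replicates on both sides of T0. Cyclin B2 (CCNB2) went from 85.2 CPM in the parental T0 library through 140 and 187 (T6) to 216 and 142 (T12), and over the NMYC libraries from 180 through 79.7 and 56.7 to 157 and 50.6. Every later CCNB2 library lay above T0 in parental and below T0 in NMYC cells. Its log2 values were 1.16 and -0.82, with an unadjusted p of 0.0293 on the lower side in NMYC cells (adjusted p = 0.969). CCNB3, a meiotic cyclin with 2 kept sgRNAs and 1.42 and 1.55 CPM at T0, had 1.81 and 2.07.

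As a group, the cell-cycle members had a median log2 value of 0.97 in parental cells, with 4 of 15 below the median gene, and -0.45 in NMYC cells, with 9 of 15 below. Over all tested genes the median is 0 by construction and 50% lie below. The difference NMYC minus parental had a median of -1.40, with 10 of 15 below. Without parental T12 replicate 1 the parental median was 0.32 and the difference -0.72. Without NMYC T12 replicate 1 or 2 the NMYC median was -0.17 or -0.09 and the difference -0.87 or -0.98. With the mean of both T0 libraries as the baseline the medians were 0.47 and -0.26. Compared directly at T12, with no T0 library, the median was -0.32 and 0 of 15 cell-cycle members had libraries of the arms that did not overlap on the lower side (19% of all genes) or on the higher side (14.8%).

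**Figure D1:**
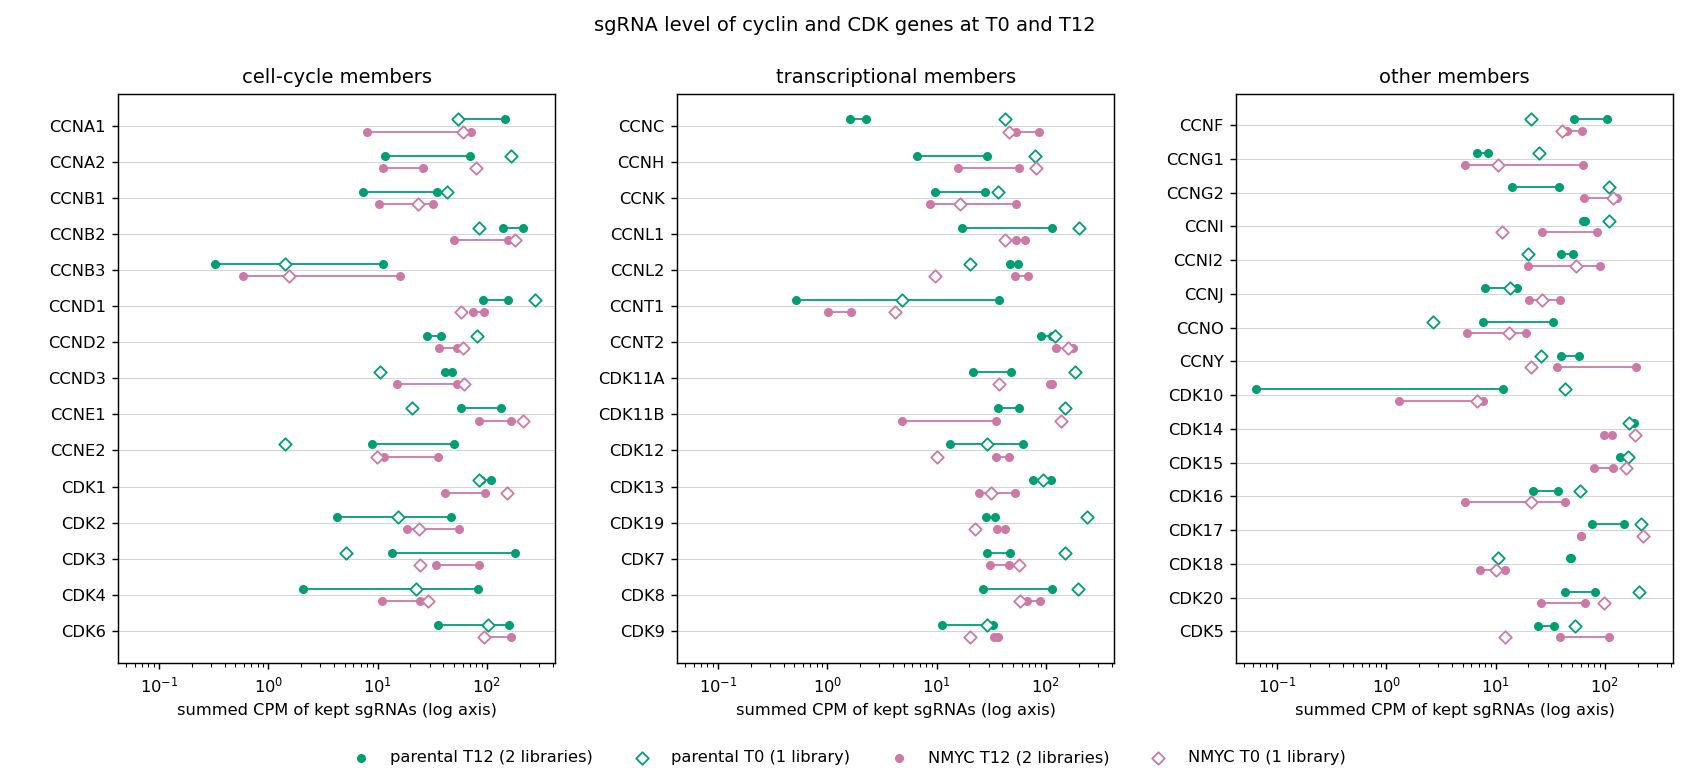
Summed CPM (log axis) of the kept sgRNAs of each cyclin and CDK gene, by class; open diamonds are the single T0 library, filled circles the 2 T12 libraries joined by a line, green for parental and pink for NMYC cells. CCNA2, CCND2, CCNH, CDK7, CDK11B, CDK17 and CDK20 have both T12 libraries below T0 in each arm. Of all genes, 41.8% do so in parental and 37.8% in NMYC cells, each arm taken alone. The share of all genes that do so in both arms was not computed, so this list cannot be read as particular to the members. Lines as long as that of CDK4 in parental cells (2.07 to 82.6 CPM) show the spread between replicate cultures.

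The transcriptional members were mostly on the lower side in parental cells and on the higher side of the difference. The first did not hold where each T0 library had to have at least 30 counts. The second is measured against 1 T0 library per arm, and the direct comparison at T12 gave a smaller median. Of 15 genes, 11 lay below the median gene in parental cells (median log2 value -1.37) and 5 of 15 in NMYC cells (median 0.44), against 50% of all genes. The difference had 13 of 15 above the median gene and a median of 1.40. Under that T0 minimum 9 genes remained testable, with 5 below and 4 above the median gene in parental cells (median -0.219), 1 below and 8 above in NMYC cells (median 0.937), and a difference of 1.57 with 7 above. Without NMYC T12 replicate 2 the NMYC median was 0.845. In parental cells 10 of 15 had both T12 libraries below the T0 library, and 1 of 15 had both above, where 41.8% and 31.3% of all genes did so. The T0 levels moved with this: 12 of the 15 were higher in the parental T0 library than in the NMYC T0 library. Of the cell-cycle members 5 of 15 were, and of all members 26 of 46. The share of all genes was not computed. The median T0 level of the transcriptional members was 94.3 CPM in parental and 36.9 CPM in NMYC cells, beside 53.1 and 43.7 CPM over all genes. With the mean of both T0 libraries as the baseline, the transcriptional medians were -0.53 in parental and -0.47 in NMYC cells, with 11 and 8 of 15 below. Directly at T12, 11 of 15 lay above the median gene with a median of 0.31. Leaving out 1 T12 library gave differences from 1.04 to 1.67, with 11 to 13 of 15 above. The 1 T0 library of each arm stayed in for all of these.

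The CDK-activating kinase, CDK7 with cyclin H (CCNH), phosphorylates both cell-cycle CDKs and RNA polymerase II. CDK7 went from 151 CPM in the parental T0 library through 14.7 and 55.3 (T6) to 28.8 and 46.6 (T12). CDK7 in NMYC cells went from 57.4 CPM through 19.7 and 3.91 to 45.9 and 31.1. All later libraries of both arms lay below T0 (log2 values -1.89 and -0.60; adjusted p on the lower side 0.989 and 1). In parental cells all 3 sgRNAs lay below the median sgRNA, with HGLibB_08786 going from 550 counts through 7 and 0 to 0 and 39. In NMYC cells the sgRNAs differed: HGLibB_08787 went from 733 counts through 369 and 14 to 679 and 407. HGLibB_08786 rose there, from 1 count through 0 and 0 to 23 and 24. HGLibB_08788 started from only 6 NMYC counts, rose to 15 and 35, and then dropped to 0 and 0.

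Cyclin H (CCNH) went from 80.1 CPM in the parental T0 library through 21.1 and 27.7 (T6) to 28.8 and 6.65 (T12). CCNH in NMYC cells went from 80.8 CPM through 50.9 and 9.8 to 15.6 and 56.6. As for its kinase, every later library lay below T0 in both arms, and the T0 levels of the arms were alike (log2 values -2.05 and -1.18; adjusted p on the lower side 0.989 and 1). MNAT1, the assembly factor of this kinase, went from 69.4 CPM in the parental T0 library through 90.4 and 233 (T6) to 44.4 and 57.5 (T12). Over the NMYC libraries it went from 127 CPM through 54.5 and 81.5 to 68.4 and 60.9. Its parental T6 libraries thus lay above T0, unlike those of CDK7 and CCNH, and its other later libraries lay below T0.

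Among the Mediator kinase genes, cyclin C had the highest difference between the arms of all members, 4.72 (adjusted p = 0.994). Cyclin C (CCNC) went from 42.5 CPM in the parental T0 library through 6.63 and 22.1 (T6) to 2.26 and 1.61 (T12). CCNC in NMYC cells went from 45.7 CPM through 20.4 and 48.9 to 52.8 and 86.5. The T12 libraries of the arms did not overlap, on T0 levels that were nearly equal, and the direct log2 value at T12 was 4.92 (unadjusted p = 0.00456, adjusted p = 0.976). The log2 values against T0 were -4.04, the lowest of all members, and 0.57 (adjusted p on the lower side 0.989 in parental cells, 0.967 on the higher side in NMYC cells). The parental value rests on 1 sgRNA: HGLibB_08062 went from 569 counts to 5 and 12, and the other 2 had 0 counts at parental T0 and between 4 and 26 at T12. In NMYC cells HGLibB_08062 went from 538 counts to 346 and 196. The alternatives gave its parental adjusted p a range of 0.203 to 0.995.

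CDK8 went from 196 CPM in the parental T0 library through 84.8 and 182 (T6) to 26.4 and 115 (T12). CDK8 in NMYC cells went from 58.1 CPM through 48 and 48 to 88.2 and 66.6. Its paralog CDK19 went from 237 CPM in the parental T0 library through 48.2 and 85.7 (T6) to 28.4 and 34.5 (T12), and over the NMYC libraries from 22.3 through 22.6 and 53.6 to 35.8 and 42.3. Both kinases lay below T0 in all later parental libraries, with all 3 sgRNAs of each below the median sgRNA, and above T0 in both NMYC T12 libraries. The log2 values were -1.37 and 0.38 for CDK8 and -2.80 and 0.77 for CDK19, which had an unadjusted p of 0.005 in parental cells (adjusted p = 0.961) and of 0.038 in the difference (3.67, adjusted p = 0.994). The parental T0 level of CDK19 was over 4-fold that in NMYC cells, and at T12 the direct log2 value between the arms was 0.38.

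Of the pause-release kinase, CDK9 went from 28.9 CPM in the parental T0 library through 11.9 and 12.3 (T6) to 32.9 and 11.2 (T12). CDK9 in NMYC cells went from 20.1 CPM through 5.55 and 29.6 to 33.3 and 36.5. The kept sgRNAs, 2 in number, gave log2 values of -0.29 and 0.75, with parental replicates on both sides of T0. Cyclin T1 (CCNT1) went from 4.85 CPM in the parental T0 library through 4.8 and 17.1 (T6) to 0.517 and 37.3 (T12). CCNT1 in NMYC cells went from 4.19 CPM through 21 and 20.3 to 1.64 and 1.01. Its NMYC T12 libraries lay below T0 and below T6 (log2 value against T6 -3.88, unadjusted p = 0.0213, adjusted p = 0.982), at levels of a few counts per sgRNA: 0 and 13, 0 and 0, and 25 and 1 at T12. Cyclin T2 (CCNT2), which can take its place, lay at -0.15 and -0.14.

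CDK12 and CDK13 with cyclin K (CCNK) support elongation through long genes, among them DNA repair genes. CDK12 went from 28.8 CPM in the parental T0 library through 45 and 66.2 (T6) to 13.4 and 61.4 (T12), and over the NMYC libraries from 10.2 through 11.6 and 30.8 to 34.9 and 45.8. CDK13 went from 94.3 CPM in the parental T0 library through 32.9 and 131 (T6) to 111 and 76.1 (T12), and over the NMYC libraries from 31.3 through 32.3 and 43 to 52.2 and 24.4. Cyclin K went from 36.4 CPM in the parental T0 library through 16.2 and 23.7 (T6) to 27.5 and 9.69 (T12), and over the NMYC libraries from 16.3 through 35.3 and 16.7 to 8.7 and 53.4. Only CDK12 in NMYC cells and CCNK in parental cells had both T12 libraries on the same side of T0, above and below it. The log2 values in parental and NMYC cells were 0.47 and 1.91 for CDK12, 0.08 and 0.26 for CDK13 and -0.85 and 0.88 for CCNK, with adjusted p from 0.981 to 1.

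CDK11A and CDK11B are near-identical neighbouring copies whose kinases bind cyclin L, and the target of an sgRNA against either is uncertain because it may match both. CDK11A went from 185 CPM in the parental T0 library through 57.8 and 89.3 (T6) to 47.6 and 21.4 (T12). CDK11A in NMYC cells went from 36.9 CPM through 15.9 and 33.9 to 109 and 115. CDK11B went from 151 CPM in the parental T0 library through 39.8 and 112 (T6) to 36.3 and 57.3 (T12), and over the NMYC libraries from 138 through 37.9 and 37.6 to 35 and 4.83. In parental cells both copies lay below T0 in all later libraries. In NMYC cells they parted, CDK11A above T0 at T12 and CDK11B below it, with T12 libraries of the arms that did not overlap for either gene.

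CDK11B and CDK11A had the smallest parental p of all members on the lower side, 0.000478 and 0.000673 before adjustment and 0.862 and 0.89 after it (log2 values -1.58 and -2.31). In NMYC cells CDK11B again had a small p on the lower side (0.00453, adjusted p = 0.864; log2 value -2.79, the lowest member there), and CDK11A was at 1.56 (adjusted p on the higher side 0.963). The difference was 3.98 for CDK11A (unadjusted p = 0.00522, adjusted p = 0.981) and -1.10 for CDK11B. Over the alternatives the parental adjusted p ran from 0.551 to 0.96 for CDK11B and from 0.314 to 0.979 for CDK11A.

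In parental cells the sgRNAs of each copy lay on both sides, and in NMYC cells all 3 against CDK11A lay above the median sgRNA and all 3 against CDK11B below it. HGLibB_08718 against CDK11A went from 2137 counts in the parental T0 library through 100 and 274 (T6) to 6 and 3 (T12). It fell by 9.08 on the log2 scale (edgeR adjusted p = 0.022). This was the only member sgRNA called in the 9 comparisons (0.758% of the 132, beside 0.0226% of all kept sgRNAs on the lower side). In the other comparisons 0% to 0.0132% of all kept sgRNAs were called lower (0.0132% in NMYC cells from T0 to T12, 0.00189% for parental T6 against T0 and between the arms at T12), and 0% higher. The same sgRNA went from 399 counts through 65 and 214 to 458 and 1066 in NMYC cells, and the difference between the arms was not called (adjusted p = 0.337). HGLibB_08717 had 340 parental counts at T0 and 731 and 274 at T12, and HGLibB_08719 had 5 at T0 and 0 and 67 at T12. Against CDK11B, HGLibB_08720 went from 930 parental counts to 13 and 5 and HGLibB_08721 from 974 to 0 and 5, while HGLibB_08722 had 122 at T0 and 549 and 913 at T12. So 3 of the 6 CDK11 sgRNAs went from between 930 and 2137 parental counts at T0 to between 0 and 13 at T12. These bounds follow the values seen, and no share of all sgRNAs was computed for them. Of all sgRNAs with at least 100 counts at parental T0, 3.36% had at most 10 in both T12 libraries. Of such non-targeting sgRNAs, 3.24% did.

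The call of HGLibB_08718 was lost when any of the parental T12 or NMYC T6 libraries was left out, in the parental libraries alone, when each T0 library had to hold at least 30 counts, with both T0 libraries as the baseline and with the replicate culture within each arm as a block, each of which gave 0 called member sgRNAs. With the replicate number as a block 1 member sgRNA was called, and which one was not recorded. DESeq2 called 17 member sgRNAs in the same comparison. Its calls over all kept sgRNAs were not counted, so this number cannot be read as particular to the members.

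**Figure D2:**
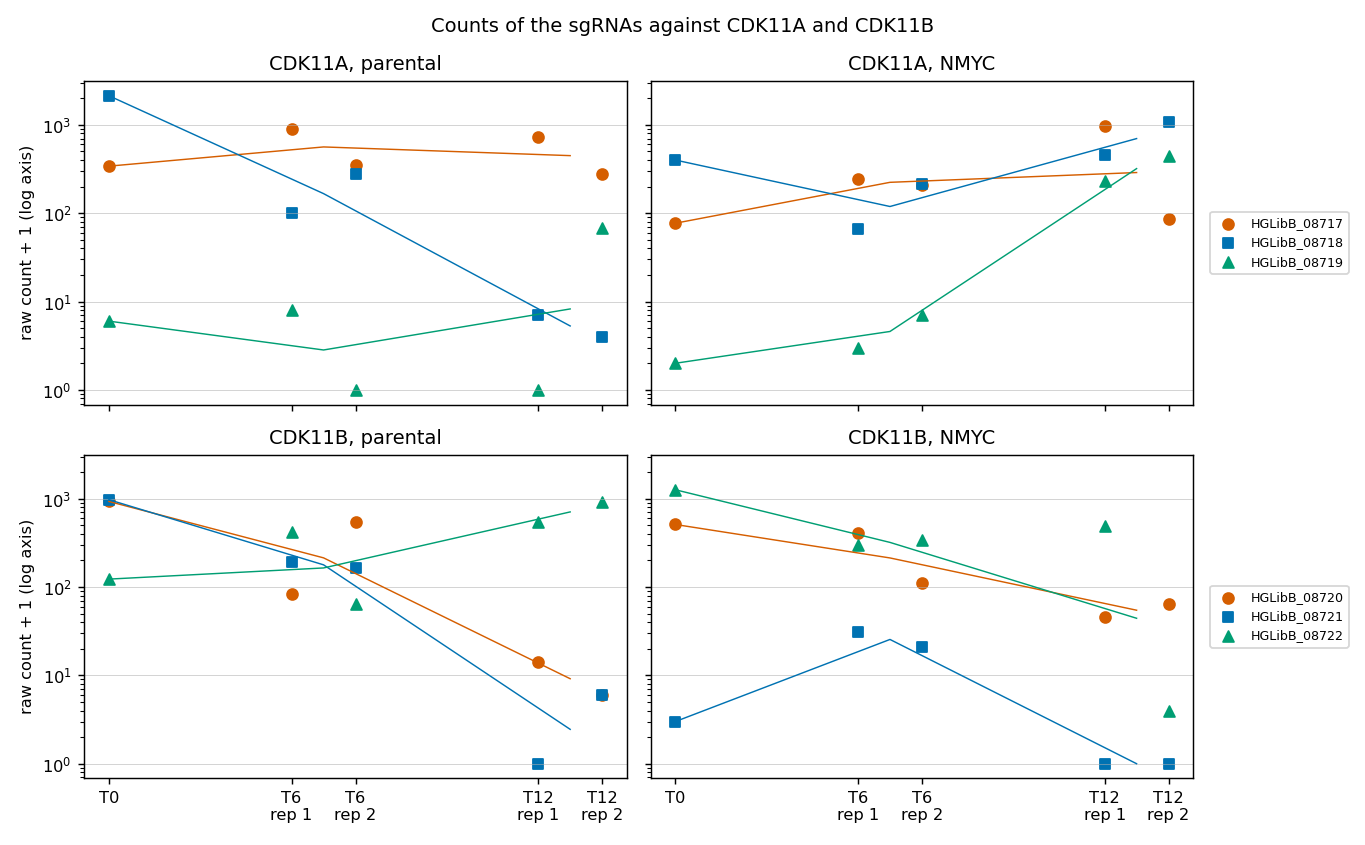
Raw counts plus 1 (log axis) of the 3 sgRNAs against CDK11A and the 3 against CDK11B in each parental (left) and NMYC (right) library; points are libraries and lines join T0 to the geometric means of the T6 and T12 replicates. HGLibB_08718, HGLibB_08720 and HGLibB_08721 drop to between 0 and 13 counts at parental T12, and HGLibB_08717 and HGLibB_08722 lie between 274 and 913 counts there.

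Cyclins L1 and L2, the partners of CDK11, lay on opposite sides in parental cells. CCNL1 had log2 values of -1.49 and 0.44, with both parental T12 libraries (115 and 17.2 CPM) below T0 at 200 CPM. CCNL2 had 1.43 and 2.55, and in NMYC cells it went from 9.78 CPM at T0 to 31.6 and 52.8 at T6 and 52.6 and 69.2 at T12. All later NMYC libraries of CCNL2 lay above T0 and all 3 sgRNAs lay above the median sgRNA (unadjusted p on the higher side 0.0247, adjusted p = 0.953).

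The 16 other members ran from -2.68 (CDK10) to 2.82 (CCNO) in parental cells, with a median of -0.37 and 10 below the median gene. In NMYC cells they ran from -1.90 (CDK17) to 2.50 (CDK5), with a median of -0.05 and 9 below. Single libraries and the T0 minimum moved these medians. The parental median was -0.136 with 8 below without parental T12 replicate 2, and 0.471 over the 5 genes left by the T0 minimum. The NMYC median was -0.423 without NMYC T12 replicate 1, 0.469 without replicate 2 and 0.264 with both T0 libraries as the baseline. CDK20 was the member with the smallest NMYC p on the lower side (0.00279, adjusted p = 0.807; log2 value -1.10). It went from 206 CPM in the parental T0 library through 82.4 and 85.4 (T6) to 43.5 and 81.1 (T12), and over the NMYC libraries from 97.3 through 42.2 and 58.3 to 26.1 and 65.8. Every later library lay below T0, yet in parental cells CDK20 had an unadjusted p under 0.05 on both sides, 0.0206 lower and 0.0124 higher. Its kept sgRNAs, HGLibB_08750 and HGLibB_08752, had 2748 and 16 counts at parental T0, and 39 and 116 against 635 and 1190 at T12. The gene p can thus rest on a single sgRNA.

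CDK5, a kinase best known from neurons, went from 53.1 CPM in the parental T0 library through 33.1 and 18.1 (T6) to 24.6 and 34.2 (T12). CDK5 in NMYC cells went from 12.3 CPM through 52 and 16.3 to 38.5 and 108. It lay below T0 in all parental and above T0 in all NMYC libraries (log2 values -0.75 and 2.50; unadjusted p on the higher side in NMYC cells 0.0439, adjusted p = 0.953). Cyclin Y (CCNY), a membrane-anchored partner of CDK14 and CDK16, went from 25.9 CPM in the parental T0 library through 30 and 16.8 (T6) to 40 and 58.1 (T12), and over the NMYC libraries from 21.3 through 35 and 19.1 to 36.1 and 194. Its NMYC value of 2.37 (unadjusted p = 0.0253, adjusted p = 0.953) rests on T12 replicates of 36.1 and 194 CPM. The NMYC values of its kinases were -0.84 for CDK14 and 0.16 for CDK16.

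Cyclin F (CCNF), an F-box protein of an SCF ubiquitin ligase, went from 21.2 CPM in the parental T0 library through 85.8 and 189 (T6) to 105 and 52.7 (T12). CCNF in NMYC cells went from 40.7 CPM through 70.8 and 71.6 to 61.9 and 45.4. All later libraries of both arms lay above T0 (log2 values 1.96 and 0.37; adjusted p on the higher side 0.981 and 0.992). Cyclin G1 (CCNG1), a p53 target, had log2 values of -1.56 and 1.63, and its relative CCNG2 -1.94 and -0.31. The remaining parental and NMYC values were -0.65 and 2.20 for CCNI, 1.29 and -0.02 for CCNI2, -0.08 and 0.12 for CCNJ, and 2.82 and -0.16 for CCNO, a cyclin of multiciliated cells. CDK10 had -2.68 and -0.56, CDK15 -0.02 and -0.68, CDK17 -0.82 and -1.90, and CDK18 2.24 and -0.09. CDK14 and CDK16 had 0.16 and -0.91 in parental cells. For CDK18 the T12 libraries of the arms did not overlap, at 48.7 and 47.6 CPM in parental and 12.1 and 7.21 in NMYC cells (direct log2 value -2.19, unadjusted p = 0.0428, adjusted p = 0.981).

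**Figure D3:**
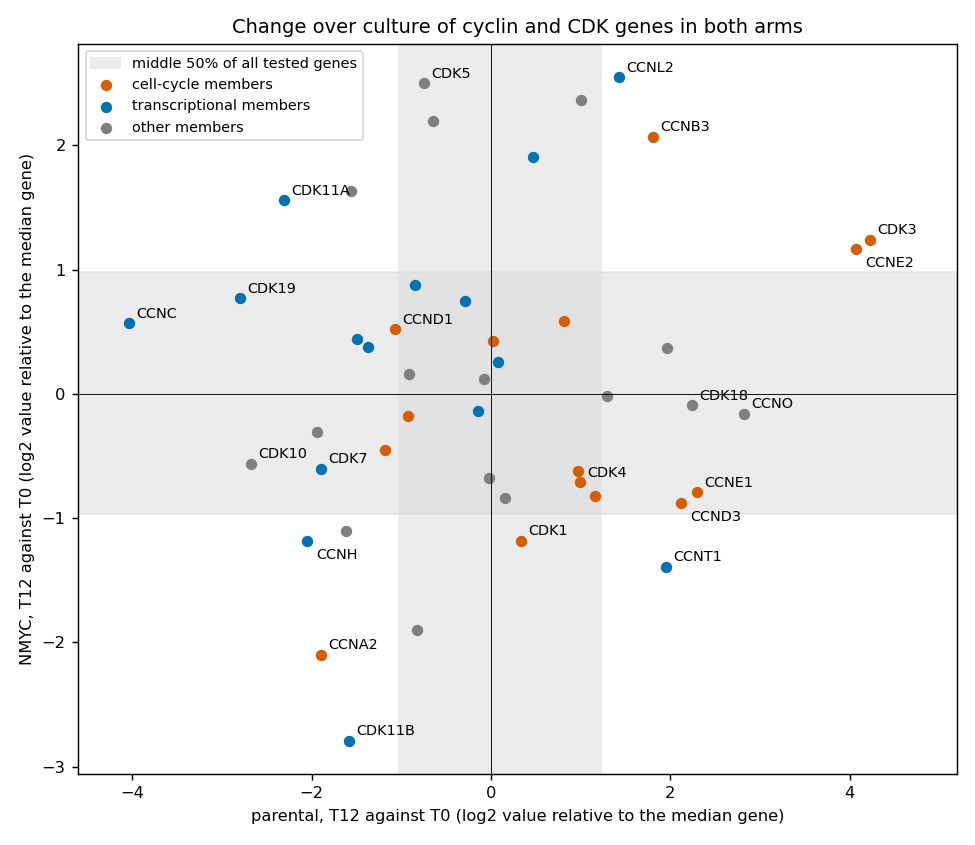
Log2 value of each cyclin and CDK gene, T12 against T0, in parental (x axis) and NMYC cells (y axis), relative to the median gene; colours give the class and the shaded bands the middle 50% of all tested genes. CCNC (-4.04 and 0.57), CDK19 (-2.80 and 0.77) and CDK11A (-2.31 and 1.56) lie at upper left, CCNE1 and CCND3 at lower right, and CCNA2 and CDK11B at lower left.

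The sgRNAs of a gene can be compared by their side of the median sgRNA. Among the 40 members with 3 kept sgRNAs, all 3 lay lower in parental cells for CCNB1, CDK1, CDK14, CDK19, CDK7 and CDK8, 6 genes or 15% (12.7% of all such genes), and all 3 lay higher for 8 or 20% (12.2%). In NMYC cells all 3 lay lower for CCNA1, CCNE1, CDK11B, CDK18 and CDK4, 5 genes or 12.5% (12.8%), and higher for 6 or 15% (12.7%). The NMYC median sgRNA had a log2 value of 0.239, so a lower side need not mean a fall. For CDK18, HGLibB_08741 had 0 counts in all NMYC libraries and HGLibB_08742 a log2 value of -0.01. For CDK4, HGLibB_08762 and HGLibB_08764 had 0.01 and 0.20. In the difference 9 genes were lower throughout, 22.5% (12.5% of all such genes), among them CCNA1, CCNB2, CCNE1 and CDK3, and CDK11A and CDK19 were higher, 5% (12.7%). CDK1 shows how ranks and sums can part: its 3 sgRNAs lay below the parental median sgRNA while its summed level had a log2 value of 0.33, since the median sgRNA itself had a log2 value of 0.565 there.

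Loss of abundant member sgRNAs was about as frequent as for non-targeting controls. Of 66 member sgRNAs with at least 100 counts at parental T0, 3 had at most 10 in both T12 libraries (4.55%), against 3.36% of all such sgRNAs and 3.24% of 432 non-targeting ones. These 3 targeted CDK10, CDK11A and CDK11B. In NMYC cells it was 3 of 67 (4.48%), against CCNA1, CDK20 and CDK4, beside 3.54% of all and 3.82% of 498 non-targeting sgRNAs. In the other direction, 3 of 38 parental member sgRNAs with at most 10 counts at T0 had at least 100 in both T12 libraries (7.89%, beside 11.9% of all), against CCNB2, CDK16 and CDK5. In NMYC cells 1 of 27 did so (3.7%, beside 7.11%), HGLibB_08719 against CDK11A, from 1 count at T0 to 2 and 6 at T6 and 230 and 442 at T12.

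The T0 level went together with the direction of change. In parental cells the 22 members with both T12 libraries below T0 (47.8%, beside 41.8% of all genes) had a median T0 level of 115 CPM, and the 13 with both above (28.3%, beside 31.3%) had 20.2 CPM. In NMYC cells 15 members lay below (32.6%, beside 37.8%), with a median T0 level of 97.3 CPM, and 15 above (32.6%, beside 31%), with 22.3 CPM. Over all genes the corresponding medians were 112 and 16.9 CPM in parental and 95.5 and 22.8 CPM in NMYC cells. Across the 46 members the T0 level and the log2 value had a Spearman correlation of -0.705 in parental and -0.645 in NMYC cells, a description only, since the T0 count enters both and all points share the same libraries. Over all genes it was -0.775 and -0.7. The part of the T0 level in single results was not tested.

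**Figure D4:**
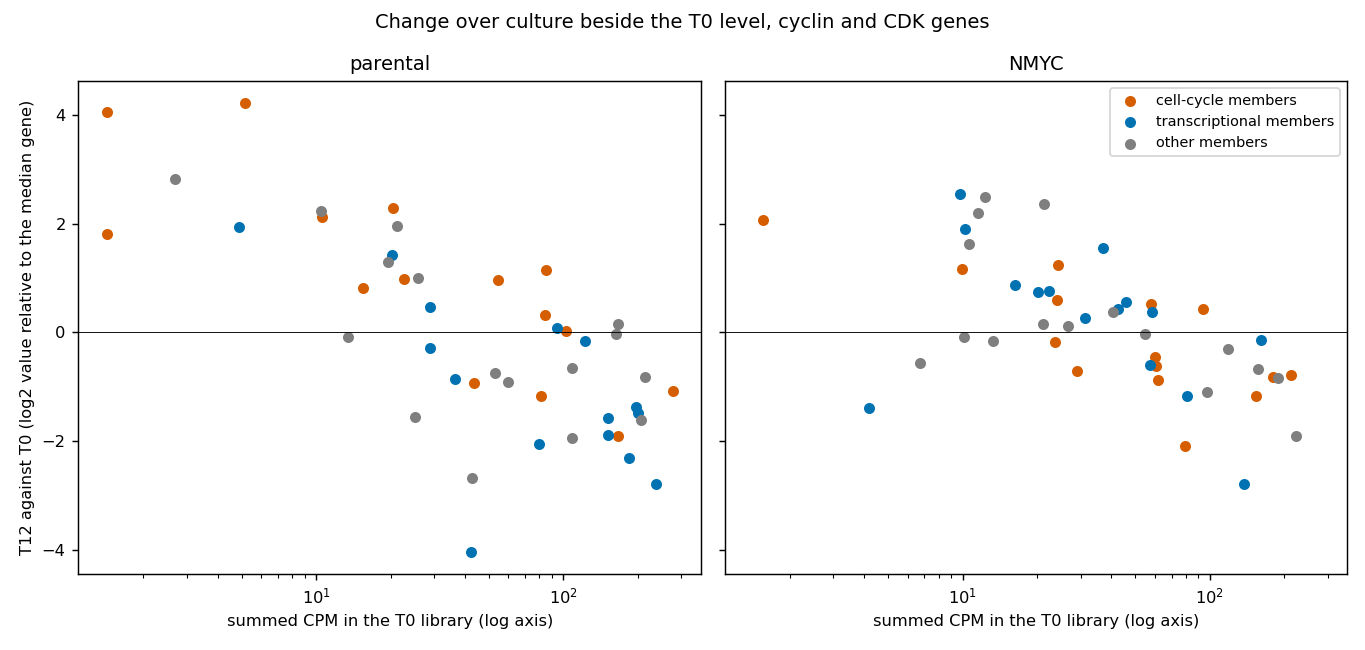
Log2 value T12 against T0 (y axis, relative to the median gene) beside the summed CPM in the T0 library (x axis, log scale) for the 46 cyclin and CDK genes, parental at left and NMYC at right. Genes with low T0 levels lie mostly above 0 and those with high T0 levels mostly below, with Spearman correlations of -0.705 and -0.645.

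At T6 against T0 the family median was 0.00 in parental and 0.14 in NMYC cells. In each arm 1 member had an unadjusted p under 0.05 on the lower side (2.17%, beside 4.98% of all genes in parental and 5.12% in NMYC cells), and on the higher side 3 in parental (6.52%, beside 4.9%) and 1 in NMYC cells (2.17%, beside 4.98%). On the lower side CDK7 had an unadjusted p of 0.0419 in parental cells (log2 value -1.89, adjusted p = 0.985) and CDK1 of 0.0428 in NMYC cells (-1.68, adjusted p = 0.971). From T6 to T12, which needs no T0 library, 31 of 46 members lay below the median gene in parental cells (67.4%, median -0.51). In NMYC cells 26 did (56.5%, median -0.09), beside 50% of all genes in either arm. These medians and shares were not recomputed with single libraries left out. The parental T6 replicates differed by over 4-fold for 10 of the 46 members (21.7%, beside 19% of all genes). In parental cells 6 members had an unadjusted p under 0.05 on the lower side (13%, beside 4.9% of all genes). The smallest belonged to CDK11B (0.000929, adjusted p = 0.819) and CDK11A (0.00538, adjusted p = 0.948), with log2 values of -0.84 and -1.23. In NMYC cells 4 did (8.7%, beside 4.93%), led by CDK20 (0.00114, adjusted p = 0.8). On the higher side 1 member did in each arm (2.17%, beside 4.9% in parental and 4.73% in NMYC cells).

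Compared directly at T6, NMYC against parental, 5 members had an unadjusted p under 0.05 on the lower side (10.9%, beside 4.96%) and 1 on the higher side (2.17%, beside 5.09%), with CCND1 first on the lower side: 61.8 and 56.3 CPM in NMYC against 80.4 and 242 in parental cells (log2 value -1.24, adjusted p = 0.954). At T12 the same comparison gave 2 members on the lower side (4.35%, beside 5.06%) and 2 on the higher side (4.35%, beside 4.88%). The smallest p on the higher side belonged to CDK11A, 109 and 115 CPM in NMYC against 47.6 and 21.4 in parental cells (1.76, unadjusted p = 0.000506, adjusted p = 0.976). On the lower side it was CDK7 (0.0346, adjusted p = 0.981), although its summed level differed by 0.10.

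Of the other genes of the pathway (CDK inhibitors, retinoblastoma and E2F proteins, CDC25 phosphatases and further regulators), 39 of a list of 41 were tested and 0 passed in either direction in any comparison. In parental cells 3 had an unadjusted p under 0.05 on the lower side and 2 on the higher side, in NMYC cells 2 and 0, and in the difference 2 and 1. Of all genes, 5.08% and 4.86% did so in parental cells, 5% and 5.09% in NMYC cells, and 4.76% and 4.82% in the difference. CDC25A, a phosphatase that activates CDK2 and CDK1, had log2 values of -3.14 in parental (unadjusted p = 0.0108, adjusted p = 0.981) and -1.15 in NMYC cells (0.00458, adjusted p = 0.864). Its level was 194 CPM at parental T0 and 26 and 14.3 at T12, and 77.5 at NMYC T0 and 26.6 and 43.9 at T12, below T0 in all 4. CDC25B had 1.79 CPM at parental T0 and 90.5 and 137 at T12 (log2 value 5.74, adjusted p = 0.904), and 94.4 at NMYC T0 and 25.5 and 83.4 at T12 (difference -6.44, unadjusted p = 0.00103, adjusted p = 0.992). RBL1, a relative of the retinoblastoma protein, had -1.57 and 1.24 (difference 2.92, adjusted p = 0.983), and E2F1, a transcription factor of S phase genes with 2 kept sgRNAs, -0.65 and -3.05 (adjusted p in NMYC cells 0.98). CDC25C had the second smallest p on the higher side in parental cells (log2 value 2.56, unadjusted p = 0.0392, adjusted p = 0.981). In NMYC cells the smallest on that side were 0.167 for CDKN3 (log2 value 0.21) and 0.177 for FZR1 (1.83), both with an adjusted p of 0.992. PKMYT1 had a difference of 3.02 (adjusted p = 0.994).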

How the data were processed

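The deposited table holds raw counts of reads per sgRNA, 1 column per library and no normalization, per the file header. MAGeCK is named, unversioned, per the submitters' processing notes. Trimming, mismatches, the sgRNA reference and any genome build are not given in the labels or header. All 10 columns matched a sample by name, with 0 columns unmapped. sgRNAs with a mean of at least 20 counts were kept (53040 of 55849) and genes with at least 2 kept sgRNAs tested. Each sgRNA was fitted with edgeR 4.0.16 (R 4.3.3; TMM factors, quasi-likelihood test, 6 group means, 4 residual degrees of freedom). Robust rank aggregation used sgRNAs with a one-sided p under 0.25 and an exact null. It was run on simulated data, but the share of changed genes it recovered is not given here. How large a change could be called in these libraries is thus not stated. All libraries shared a fit because each arm has 1 T0 library, assumed to vary like the duplicated groups. Reads were amplified by PCR and carry no stated molecular identifiers, so depth bears on counting error only. The common dispersion was 1.11.

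Classes, the pathway list and the named genes (20 preset members and, per T12 against T0 contrast, the 3 smallest p in each direction) were chosen with earlier results of these data known. CDK4 and CCND1 sgRNAs and other single sgRNAs were picked after their values were seen. Per the labels' protocols a replicate number marks a culture carried over passages, so it pairs T6 and T12 within an arm; replicate differences at T6 and T12 correlated at 0.0687 in parental and -0.00874 in NMYC cells over sgRNAs. DESeq2 1.42.0 and other alternatives are in the closing section. sgRNA sequences were not analysed here.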

Additional observations from a re-analysis of the deposited data

How the results depend on the processing

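Over 9 comparisons and all alternatives, including leaving out each T6 or T12 library, 0 cyclin or CDK genes were called, with either form of the replicate block too. The block within arms and the baseline of both T0 libraries were chosen after seeing the data. The count of called member sgRNAs in parental cells from T0 to T12, 1 in the main analysis, was 0 when each T0 library had to hold at least 30 counts, with the replicate block within arms, with both T0 libraries as baseline and with the arm's libraries alone, and its range was 0 to 1 over the single-library omissions. With the replicate number as a block it stayed at 1, and in the other comparisons the block gave 0. DESeq2 called 17 there, 2 in NMYC cells, 6 in the difference, 7 for parental T6 against T0, 5 for parental T12 against T6, 2 for NMYC T12 against T6 and 11 between the arms at T12. The share of all kept sgRNAs that DESeq2 called was not computed, so these counts cannot be read as particular to the members. In NMYC cells from T0 to T12 the range over such omissions was also 0 to 1, with 1 without either parental T12 library. The causes were not tested. Under that T0 minimum 23 members remained testable, and the family median was 0.28, 0.06 and -0.16 in parental, NMYC and the difference, against -0.12, 0.05 and 0.45. Without parental T12 replicate 1 or 2 the parental median was -0.321 or -0.535 and the difference 0.553 or 0.601; without NMYC T12 replicate 1 or 2 the NMYC median was -0.0165 or 0.301 and the difference 0.753 or 0.131. Log2 values changed sign for up to 8 parental and 11 NMYC members when 1 T12 library was left out, and for 5 and 11 with both T0 libraries as baseline. The difference between the arms could not be computed from the libraries of 1 arm alone.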
